A study of Canis lupus familiaris with 8 samples.

Results

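Microglia are the resident macrophages of the retina and brain. They survive on signals through the receptor CSF1R, survey their surroundings with thin processes, and clear synapses and debris, in part by means of complement C1q. Some of their genes, such as TMEM119, P2RY12 and CX3CR1, are used to mark resting (homeostatic) microglia and set them apart from other macrophages. Others, such as CSF1R, the C1q chains, TREM2, TYROBP and AIF1, are shared by most tissue macrophages. The 10 genes described here were chosen by name, as microglia and macrophage identity genes. All 10 were among the 12824 genes of the deposited table, 3 as homeostatic and 7 as pan-macrophage genes.

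The libraries were made from retina of wild-type male Beagle dogs, 31 weeks of age. In the PFA-fixed group (4 libraries), left eyes were fixed with the crosslinking agent paraformaldehyde (PFA, 4% for 3 h, then 2% for 24 h), passed through sucrose and frozen in embedding medium, and RNA was isolated with a kit for paraffin-embedded tissue after 18 h with proteinase K. In the fresh-frozen group (4 libraries), right eyes were embedded and frozen unfixed, and RNA was isolated with a kit for very small samples. Fixation, eye and extraction kit cannot be told apart here. In both groups the eyecup was cut into quadrants before embedding. Per the series' design, the 4 replicates of each group were biological ones. No label ties a library to a dog, and each p-value rests on the variation among these 8 libraries alone. Levels are log2 CPM, the log2 of reads scaled to a common library size, and a change is the level in PFA-fixed minus that in fresh-frozen retina. A gene was called where its adjusted p was under 0.05 in limma, a linear model fitted to all 12824 genes with Benjamini-Hochberg adjustment.

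Estimated depth was 11040000 to 15410000 reads in PFA-fixed libraries and 21660000 to 22760000 reads in fresh-frozen libraries. The summed level of 20 rod photoreceptor genes was 46495 to 51909 CPM in PFA-fixed and 41792 to 48540 CPM in fresh-frozen libraries, so rod transcripts were abundant in every library. All 10 members exceeded 1 CPM in every fresh-frozen library. In every PFA-fixed library 7 did so, and TMEM119 did so in none of them. Every gene of the table exceeded 1 CPM in at least 4 libraries, so TMEM119 was kept through its fresh-frozen values alone and could not have been in the table without differing between the groups. Its change is therefore given as a description, and counts are also given without it.

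Of the 10 members, 7 were lower and 1 was higher in PFA-fixed retina, where 68.7% of all genes were called, 34.7% lower and 33.9% higher. The 7 that fell were TMEM119, CX3CR1, CSF1R, C1QA, C1QB, C1QC and TYROBP. TREM2 rose. P2RY12 and AIF1 were not called. The groups did not overlap in the 8 called genes, nor in 62.9% of all genes (31.6% with PFA-fixed lower and 31.3% with PFA-fixed higher). The median change of the members was -2.35, beside -0.02 over all genes. Without TMEM119, 6 of 9 were lower and 1 higher, with a median of -1.93. In bulk tissue, fewer cells of a type and less RNA per cell cannot be told apart.

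**Figure D1:**
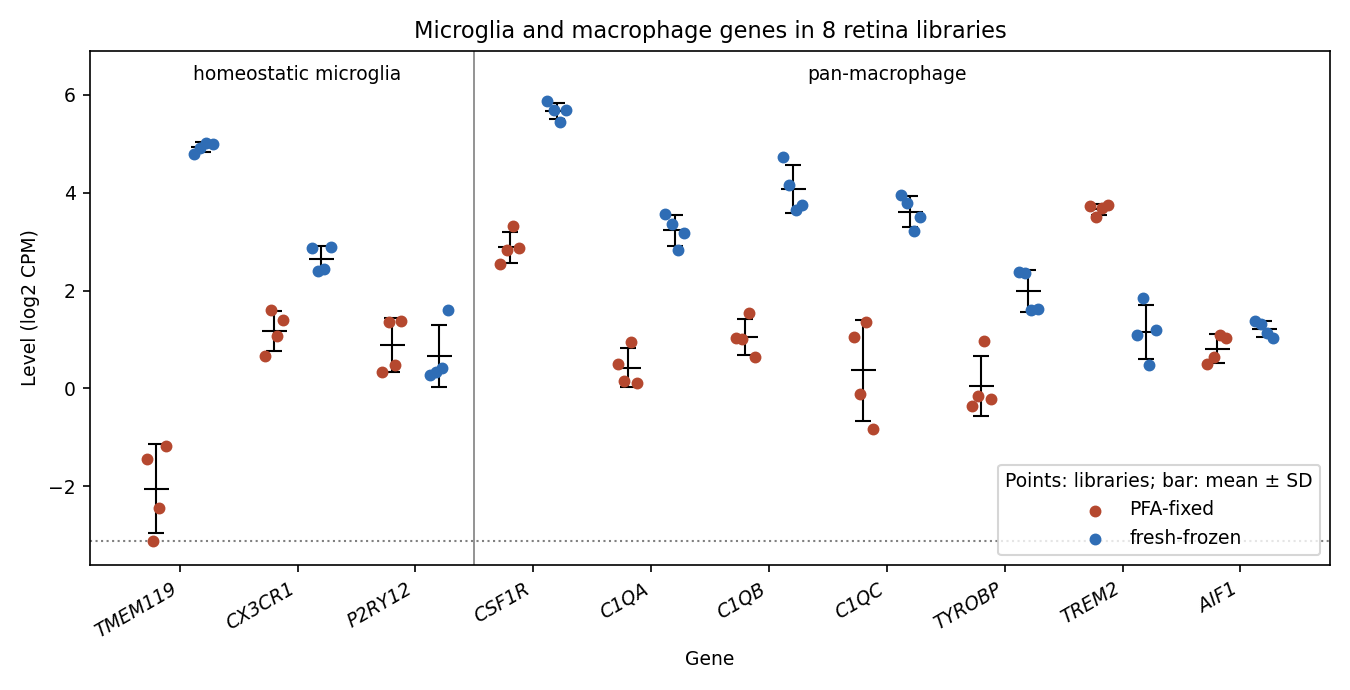
Levels of the 10 genes (log2 CPM, vertical axis) in 4 PFA-fixed and 4 fresh-frozen libraries; points are libraries, bars the mean ± SD, and the dotted line the lowest value of the table. PFA-fixed points lie below all fresh-frozen points for 7 genes and above them for TREM2, and the groups overlap for P2RY12 and AIF1.

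The 3 homeostatic genes did not move together. TMEM119, a membrane protein used as a microglial marker and also made by bone-forming cells, stood at -1.44, -3.12, -2.45 and -1.17 log2 CPM in PFA-fixed replicates 1 to 4, against 4.79, 4.91, 5.01 and 5.0 in fresh-frozen replicates 1 to 4. Replicate 2 of the fixed group was at the lowest value of the table, and the 4 fresh-frozen libraries lay within 0.23 of each other. The change of TMEM119 was -6.97 ± 0.38 (SE). Estimated reads above the lowest value summed to 8 over the PFA-fixed and 2689 over the fresh-frozen libraries, or 0.156 CPM (95% Poisson interval 0.0674 to 0.308) and 30.4 CPM (29.3 to 31.6), intervals that cover counting error only. The size of this change therefore depends on a handful of reads: it was -4.63 as log2(CPM + 1) and -7.55 as a ratio of mean CPM above the lowest value.

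CX3CR1, the receptor for the neuronal chemokine fractalkine, was at 0.66, 1.60, 1.07 and 1.39 log2 CPM in PFA-fixed replicates 1 to 4, against 2.86, 2.41, 2.44 and 2.89 in fresh-frozen replicates 1 to 4. The 2 groups did not overlap, and CX3CR1 fell by 1.47 ± 0.24 (SE; limma adjusted p = 0.000167). P2RY12, the receptor that steers microglial processes toward ADP, was at 0.33, 1.35, 0.49 and 1.38 log2 CPM in PFA-fixed replicates 1 to 4, against 0.28, 0.34, 0.41 and 1.60 in fresh-frozen replicates 1 to 4. Its highest value was in fresh-frozen replicate 4 and the groups overlapped, with a change of 0.23 ± 0.38 (SE; limma adjusted p = 0.605), and of -0.017 when libraries were centred on the rod genes. In the dog gene table P2RY12 lies inside MED12L, a gene for a subunit of the Mediator complex, and the strand setting of the counting is not given in the sources used here. Reads of the 2 genes may therefore be shared. MED12L was at 5.20 ± 0.13 log2 CPM in PFA-fixed and 4.65 ± 0.18 in fresh-frozen retina (SD, n = 4 each), a rise of 0.55 (limma adjusted p = 0.000759).

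Among the pan-macrophage genes, CSF1R had the smallest SE. This receptor for the growth factors CSF1 and IL-34 was at 2.55, 2.82, 3.31 and 2.87 log2 CPM in PFA-fixed replicates 1 to 4, against 5.87, 5.68, 5.45 and 5.68 in fresh-frozen replicates 1 to 4. It fell by 2.78 ± 0.16 (SE; limma adjusted p = 2.84e-08), a level 6.87-fold lower in PFA-fixed retina, from an estimated 388 reads in all PFA-fixed and 4511 in all fresh-frozen libraries.

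C1QA, C1QB and C1QC encode the A, B and C chains of C1q, which assemble into the molecule that starts the classical complement pathway. C1QA was at 0.50, 0.15, 0.95 and 0.11 log2 CPM in PFA-fixed replicates 1 to 4, against 3.57, 3.36, 2.82 and 3.17 in fresh-frozen replicates 1 to 4. C1QB was at 1.04, 1.01, 1.54 and 0.64 log2 CPM in the PFA-fixed replicates, against 4.73, 4.16, 3.65 and 3.75 in the fresh-frozen ones. C1QC was at 1.06, -0.12, 1.36 and -0.83 log2 CPM in the PFA-fixed replicates, against 3.96, 3.78, 3.22 and 3.50 in the fresh-frozen ones. For each chain, all 4 PFA-fixed values lay below all 4 fresh-frozen values. The changes were -2.80 ± 0.24 for C1QA, -3.01 ± 0.26 for C1QB and -3.25 ± 0.42 for C1QC (SE), with limma adjusted p-values of 1.06e-06, 8.95e-07 and 2.78e-05. The wider error of C1QC came with a spread of 2.19 between its PFA-fixed libraries, against 0.74 between its fresh-frozen ones. The 3 chains are neighbours in the dog gene table, and the nearest measured genes on either side of them, the ephrin receptor genes EPHB2 and EPHA8, rose by 1.04 and 0.83.

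TREM2 is a receptor for lipids and apolipoproteins that signals through the adaptor protein TYROBP (DAP12), to which it binds in the membrane. The transcripts of this receptor and its adaptor moved in opposite directions. TREM2 was at 3.73, 3.50, 3.68 and 3.74 log2 CPM in PFA-fixed replicates 1 to 4, against 1.09, 1.84, 0.49 and 1.19 in fresh-frozen replicates 1 to 4. All 4 PFA-fixed values lay within 0.24 of each other, and above all fresh-frozen values. The rise was 2.51 ± 0.25 (SE; limma adjusted p = 2.85e-06), or 5.69-fold, and 99.4% of all genes had a lower change. It rested on an estimated 646 reads in all PFA-fixed and 197 in all fresh-frozen libraries. TYROBP was at -0.36, -0.15, 0.97 and -0.22 log2 CPM in PFA-fixed replicates 1 to 4, against 2.37, 2.36, 1.61 and 1.62 in fresh-frozen replicates 1 to 4. It fell by 1.93 ± 0.34 (SE; limma adjusted p = 0.000333), with PFA-fixed replicate 3 above the other 3 of its group.

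AIF1 encodes the calcium-binding protein IBA1, the usual target for staining microglia in retina. It was at 0.50, 0.64, 1.09 and 1.03 log2 CPM in PFA-fixed replicates 1 to 4, against 1.38, 1.32, 1.13 and 1.03 in fresh-frozen replicates 1 to 4. The groups overlapped between 1.03 and 1.09, and the change of -0.40 ± 0.24 (SE) was not called (limma adjusted p = 0.154). It was called lower with libraries centred on the rod genes (-0.65, limma adjusted p = 0.0399) and with limma without its intensity trend (limma adjusted p = 0.0422), and was -0.059 after quantile normalization.

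**Figure D2:**
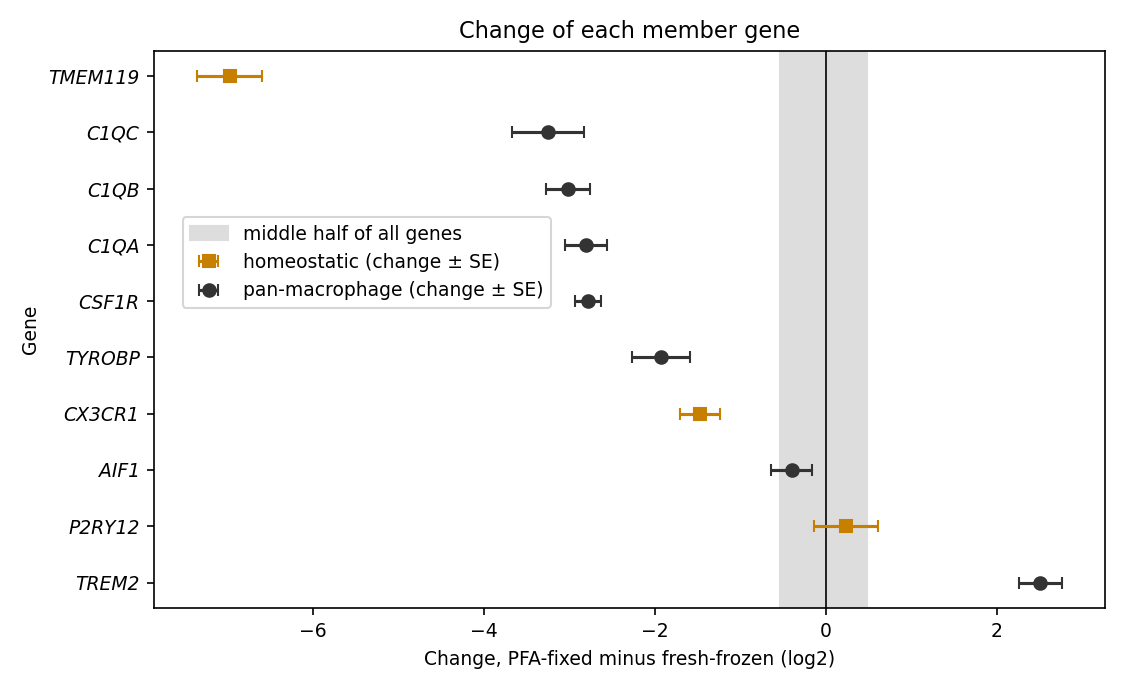
Change of each gene (PFA-fixed minus fresh-frozen, log2, horizontal axis) with its SE, homeostatic genes as squares and pan-macrophage genes as circles; the grey band runs from the lower to the upper quartile of all 12824 genes, -0.54 to 0.48. TMEM119 (-6.97) and TREM2 (2.51) are the ends of the row, and P2RY12 and AIF1 lie in or at the band.

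Set side by side, the homeostatic genes had changes from -6.97 to 0.23 with a median of -1.47 (2 of 3 lower; -0.62 without TMEM119), and the pan-macrophage genes from -3.25 to 2.51 with a median of -2.78 (5 of 7 lower, 1 higher). Each class thus held members that fell and a member that was not called, and the spread within a class was larger than the 1.31 between the medians. The order of the medians turned, to a difference of -1.44, when P2RY12 was dropped by a minimum mean level of 1 log2 CPM. Ratios of 2 genes within one library do not depend on how libraries are scaled, and were compared for all 21 pairs of a homeostatic and a pan-macrophage gene. Of these, 7 pairs hold TMEM119, whose presence in the table depended on its fresh-frozen level, and they are described without a test. Of the other 14 pairs, 11 had ratios that differed between the groups with no overlap (exact two-sided permutation p = 0.0286, the smallest that 70 assignments allow, adjusted p = 0.0364 over 14 pairs), 8 of them higher and 3 lower in PFA-fixed retina. Of 24 pairs of genes of one class, some with TMEM119, 18 did not overlap either, and neither did 62.9% of single genes. The share over all gene pairs was not computed, so 11 of 14 is not read as particular to these classes. Adjusted over all 21 pairs, as planned, these 11 had an adjusted p of 0.0333 by the same exact permutation test. That adjustment took in the 7 pairs with TMEM119, whose own outcome is not counted as a result. Leaving TMEM119 out was chosen after seeing the data. Among the 11, CX3CR1 with TREM2 was bound to pass, because these genes moved in opposite directions with no overlap. The same holds for pairs of TREM2 with a gene of its own class that fell.

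The ratio of TMEM119 to each of the 7 pan-macrophage genes was lower in every PFA-fixed than in every fresh-frozen library. Its log2 ratio to CSF1R was -4.93 ± 1.06 in PFA-fixed and -0.74 ± 0.27 in fresh-frozen libraries (SD, n = 4 each). CX3CR1 fell less than CSF1R and the C1q chains, and its log2 ratio to CSF1R was -1.71 ± 0.45 in PFA-fixed and -3.02 ± 0.20 in fresh-frozen libraries (SD, n = 4 each). P2RY12 likewise rose relative to CSF1R and each C1q chain, by 3.01 to 3.48. These 8 ratios of CX3CR1 and P2RY12 had adjusted p = 0.0364 over the 14 pairs by the exact permutation test. P2RY12 fell relative to TREM2 by 2.28, and CX3CR1 relative to AIF1 by 1.07 (the same adjusted p, exact permutation test). CX3CR1 also fell relative to TREM2, by 3.98, an outcome fixed by the opposite moves of these genes. The pairs that did not pass were P2RY12 with AIF1 and with TYROBP, and CX3CR1 with TYROBP (exact permutation adjusted p = 0.24, 0.0632 and 0.343 over the 21 pairs).

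The remaining 24 pairs, of 2 genes of one class, were added after the values had been seen. The log2 ratio of TREM2 to TYROBP was 4.09, 3.65, 2.70 and 3.96 in PFA-fixed replicates 1 to 4, against -1.28, -0.52, -1.12 and -0.42 in fresh-frozen replicates 1 to 4. It was above 0 in every PFA-fixed and below 0 in every fresh-frozen library, a difference of 4.44. This separation follows from the 2 genes themselves, since TREM2 was higher and TYROBP lower with no overlap, so no p-value is given. Adjusted p-values below are over all 24 pairs, which took in pairs with TMEM119, whose own outcome is not counted as a result. CSF1R and the C1q chains kept closer to one another. The ratio of C1QA to C1QB differed by 0.21 between the groups, that of C1QA to CSF1R by -0.02 and that of C1QA to C1QC by 0.45, and none of the 6 pairs among these 4 genes passed (exact permutation adjusted p = 0.325 to 0.886), which does not show that their changes were equal. TYROBP fell less than CSF1R (by 0.85) and than each C1q chain (by 0.87 to 1.32), with an exact permutation adjusted p = 0.0381 in each case.

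**Figure D3:**
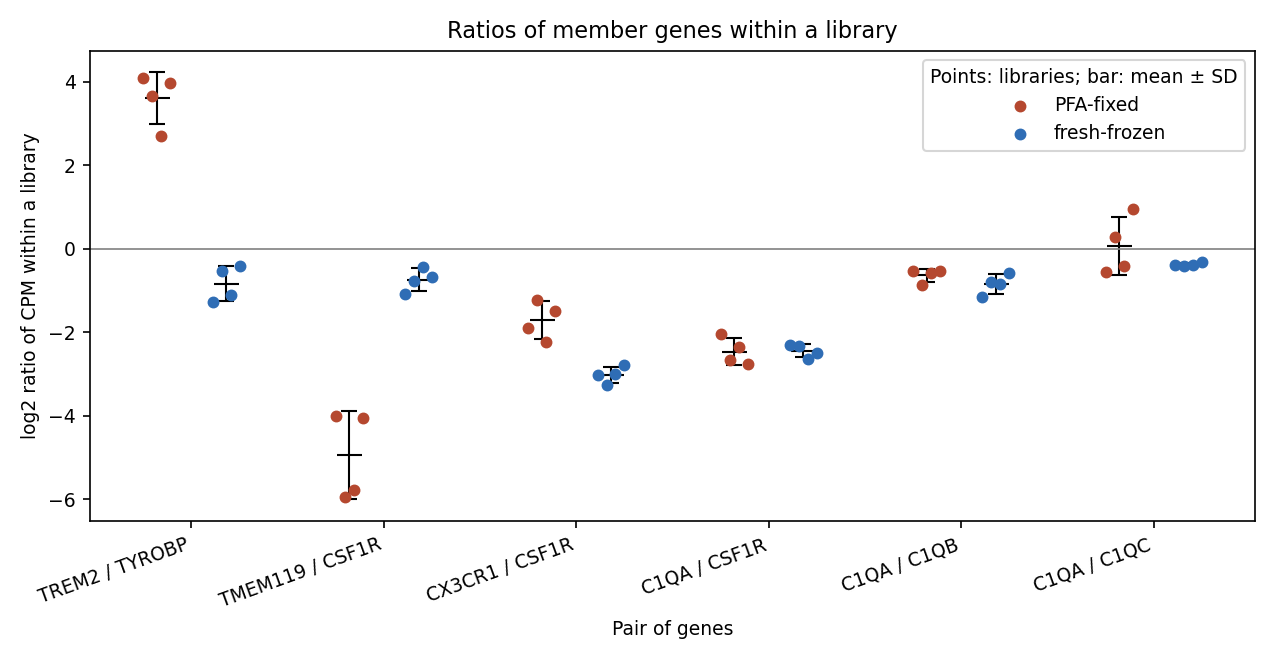
log2 ratio of 2 genes within a library (vertical axis) for 6 pairs in PFA-fixed and fresh-frozen libraries; points are libraries and bars the mean ± SD. The groups are apart for TREM2 / TYROBP, TMEM119 / CSF1R and CX3CR1 / CSF1R, and overlap for the 3 pairs with C1QA.

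Within a group, the members varied in part together. PFA-fixed replicate 3 held the highest value of its group for 6 of the 10 genes and the lowest for none, and was also the deepest PFA-fixed library (15410000 reads). Among fresh-frozen libraries, replicate 1 was highest for 6 genes and replicate 3 lowest for 6. Leaving out any single library changed neither the direction nor the call of any of the 8 called members. For TMEM119 this is no check, since its presence in the table required a difference between the groups.

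Further lists placed these genes among their neighbours in function. For each list, the shares over all genes were 34.7% lower and 33.9% higher. Of 17 measured pan-macrophage and myeloid genes that are not members, 15 were lower and none higher, with a median change of -1.77. FCER1G exceeded 1 CPM in no PFA-fixed library, and 14 were lower without it. The invariant chain gene CD74 was at 4.54 ± 0.32 log2 CPM in PFA-fixed and 7.19 ± 0.43 in fresh-frozen retina (SD, n = 4 each), a change of -2.65. The leukocyte integrin gene ITGB2 fell by 3.21. LCP1, an actin-bundling protein gene of leukocytes, fell by 0.51 (limma adjusted p = 0.0335). It was no longer called without PFA-fixed replicate 2 (-0.49) or 3 (-0.32) or fresh-frozen replicate 1 (-0.49) or 2 (-0.44), nor with quantile normalization (-0.28) or median centring (-0.43). SPI1, which encodes the myeloid master regulator PU.1 and was singled out after its values were seen, fell by 2.34. CYBB and IRF5, also singled out afterwards as the 2 genes not called, differed by 0.01 and 0.39.

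Of 5 further homeostatic microglia genes measured, 3 were lower and none higher (median -1.27). Those not called, named after their values were seen, were SALL1 (-0.12, limma adjusted p = 0.567) and SLC2A5 (-0.82, limma adjusted p = 0.057). OLFML3, a secreted matrix protein gene, fell by 3.01 and the engulfment receptor gene MERTK by 1.27. Photoreceptor debris is taken up through MERTK by pigment epithelium as well. Of 7 measured genes that activated microglia raise in mouse models, 6 were lower and 1 higher (median -2.51). The apolipoprotein gene APOE and the phosphoprotein gene SPP1 fell by 4.77 and 3.70, and the receptor tyrosine kinase gene AXL by 1.73. The one that rose was the glucan receptor gene CLEC7A, by 0.58 (named after its values were seen), a call that ended with libraries centred on the rod genes. Which cells made the transcripts of this list cannot be told from bulk libraries. In fresh-frozen libraries APOE was at 805 to 1852 CPM, where CSF1R was at 43.7 to 58.6 CPM.

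Ligands that can act on microglia, whose cells of origin bulk libraries do not show, were lower too, in 5 of 6 genes (median -1.96). Those of the members themselves, named after their values were seen, were CSF1 (-2.14) and IL34 (-1.78), which bind CSF1R, and CX3CL1 (-1.02), the ligand of CX3CR1. The bridging molecule gene GAS6 fell by 2.69 and the complement gene C3 by 2.38, while the related bridging gene PROS1 differed by 0.24 (limma adjusted p = 0.466). Of 7 measured signalling genes that act below TREM2 and TYROBP, 6 were lower and none higher (median -1.79). The kinase gene LYN fell by 2.06, the exchange factor gene VAV1 by 3.06 and the phospholipase gene PLCG2 by 0.73. VAV1 was at the lowest value of the table in 1 PFA-fixed library. Of these 7 genes, 2 including VAV1 exceeded 1 CPM in no PFA-fixed library, and 4 were lower without them. Over the other lists this held for FCER1G, CD2 and LUM, of the myeloid, T and NK cell and fibroblast lists, named after their values were seen. LYN and PLCG2 did not rise with TREM2. VAV1 was kept through its fresh-frozen values alone, so its fall is given as a description.

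**Figure D4:**
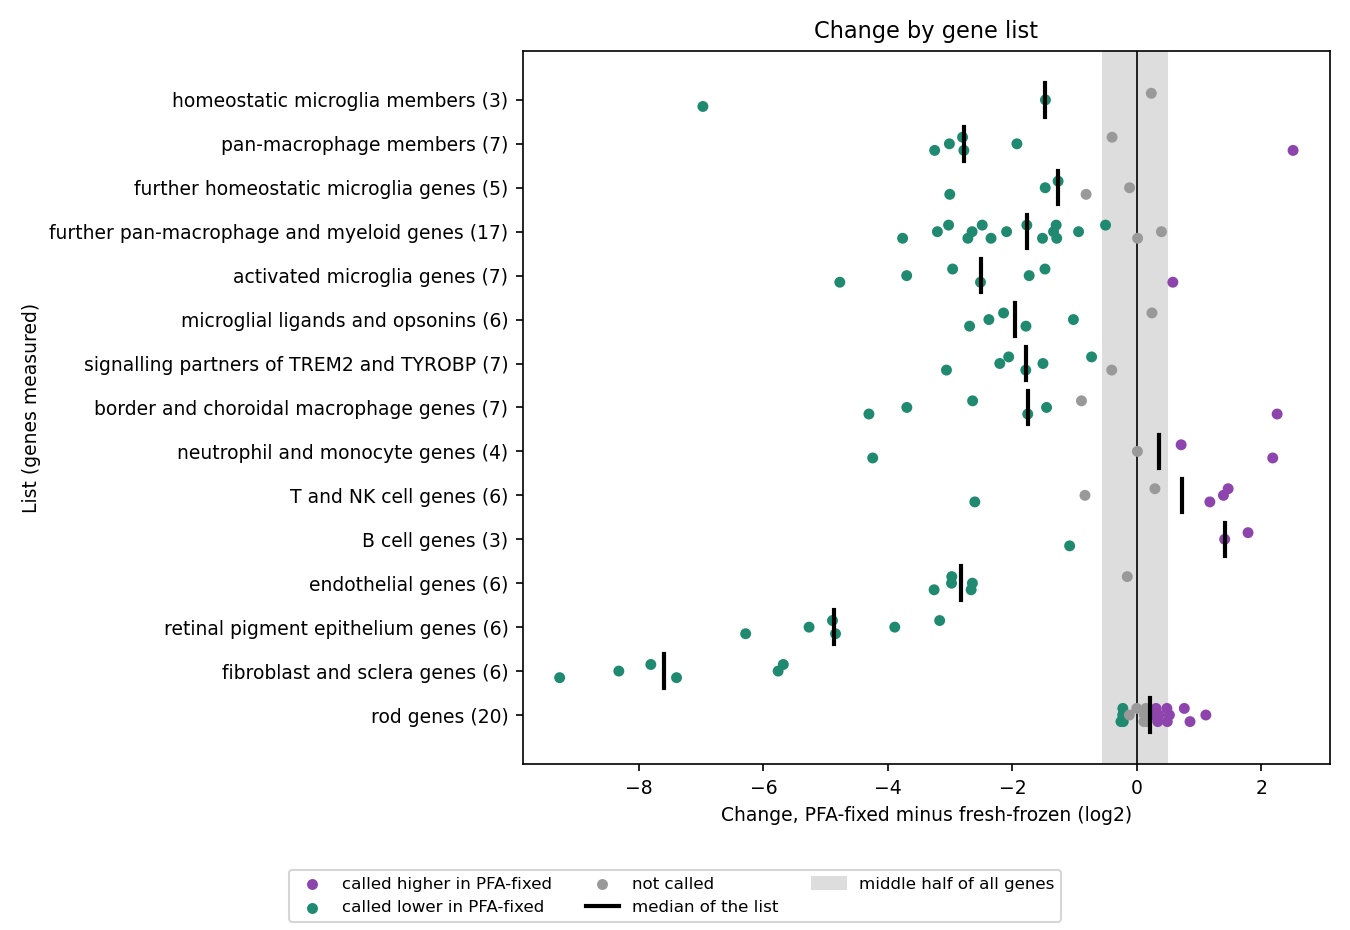
Change of each measured gene (PFA-fixed minus fresh-frozen, log2, horizontal axis) by list, with the number of genes measured, the list median as a black bar and the quartiles of all genes as a grey band; purple points were called higher, green lower and grey not called. Medians of the macrophage, ligand and signalling lists lie between -2.78 and -1.27, those of fibroblast and pigment epithelium genes lower, and those of T, B and neutrophil genes above 0.

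Macrophages also live in the choroid and along vessels, and blood leukocytes can be present in tissue. Of 7 measured genes of border and choroidal macrophages, 5 were lower and 1 higher (median -1.75). The scavenger receptor genes CD163 and STAB1 fell by 3.70 and 2.64 and the coagulation factor gene F13A1 by 4.31. LYVE1, a hyaluronan receptor gene of some macrophages and of lymphatic endothelium, rose by 2.25, and was at 6.46 to 6.83 log2 CPM in PFA-fixed and 4.17 to 4.56 in fresh-frozen libraries. The summed level of this list was 104 to 131 CPM in PFA-fixed and 104 to 128 CPM in fresh-frozen libraries. Of this sum, LYVE1 alone made up 88.1 to 114 CPM in PFA-fixed and 17.9 to 23.5 CPM in fresh-frozen libraries. The similar sums therefore do not mean that the other genes of the list were unchanged. Genes of the leukocyte lists went both ways. Of 6 T and NK cell genes, 3 were higher and 1 lower (CD5 1.46, CD2 -2.60, CD247 0.29 and not called). CD2 exceeded 1 CPM in no PFA-fixed library, and without it 0 of this list were lower. Of 3 B cell genes, 2 were higher and 1 lower, with PAX5 up by 1.78 and CD79A changed by -1.08. Of 4 neutrophil and monocyte genes, 2 were higher and 1 lower, with S100A8 changed by -4.25. The summed levels were 50.3 to 72.5 CPM in PFA-fixed against 28.0 to 36.1 CPM in fresh-frozen libraries for T and NK cells, 81.1 to 83.0 against 95.2 to 122 CPM for B cells, and 31.3 to 43.9 against 23.7 to 32.4 CPM for neutrophils and monocytes. No gene of these 4 lists was at the lowest value of the table in any library. Their part in the changes of the members was not tested.

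Genes of neighbouring tissue moved with the members. All 6 fibroblast and sclera genes, all 6 pigment epithelium genes and 5 of 6 endothelial genes were lower, with medians of -7.60, -4.87 and -2.82, and none was at the lowest value in any library. LUM exceeded 1 CPM in no PFA-fixed library, and 5 fibroblast and sclera genes were lower without it. Summed levels were 27.1 to 44.2 CPM in PFA-fixed and 6640 to 9862 CPM in fresh-frozen libraries for fibroblasts and sclera, 80.0 to 154 CPM and 2098 to 3113 CPM for pigment epithelium, and 338 to 415 CPM and 700 to 1037 CPM for endothelium. Their part in the result was not tested.

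Genes with the most similar profile to a member were found as those with the smallest root-mean-square distance over the 8 libraries, each gene centred on its own mean. For TMEM119 these were CPXM1, CEMIP and COL15A1, of which COL15A1 encodes a basement membrane collagen, at distances of 0.27, 0.29 and 0.33 log2 units. They were not macrophage genes of the lists. For C1QB they were CD74, C1QA and ITGB2 (0.20, 0.20 and 0.22), all genes of the macrophage lists. For TREM2 they were CCDC60, CRP and ASIC5 (0.22, 0.25 and 0.29), which had changes of 2.36, 2.67 and 2.41. CRP encodes C-reactive protein, which is made chiefly by the liver. The nearest measured genes on the chromosome of TREM2 were NFYA, with a change of 0.22, and FOXP4, with a change of -1.37, and other genes lay between TREM2 and each of them.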

How the data were processed

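RNA of 8 dog retina samples was sequenced after stranded total RNA library preparation, per the labels. The tools named in the submitters' processing notes are kallisto (version 0.48.0), limma and edgeR, without their roles. The deposited table holds log2 CPM for 12824 genes, with one lowest value of -3.12 (0.115 CPM, about 2.01 reads at the mean depth) in common. Which reference, strand setting and filter the authors chose is not given in the sources used here, and the labels give no processing batch. Groups came from sample titles.

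limma 3.58.1 (R 4.3.3) was fitted with an intensity trend to the deposited log2 values of all 12824 genes, with the group as the only term, and checked on simulated data. Ratios of 2 genes were compared with scipy 1.17.1. Depth was estimated from the spacing of low values (searched between 0.03 and 0.15 CPM, up to 40 reads). Between 56.6% and 60.8% of these were whole reads within 0.1 of a read, where 20% would be by chance, so no count test was run and estimated reads are approximate.

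The members and lists were chosen with earlier results of these data known. Genes named are the members, the 2 genes of each list with the highest mean level, the 2 called with the largest change, the 3 nearest profiles and chromosomal neighbours; others are marked, and some that the rule names are not reported here. In the RefSeq gene table of UU_Cfam_GSD_1.0, used for names and neighbours, 10 members matched. Alternatives were leaving out each library, a replicate block, quantile, median and rod-list scaling, a minimum level of 1 log2 CPM, log2(CPM + 1), ratios of linear CPM and limma without trend.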

Additional observations from a re-analysis of the deposited data

Results flagged for a closer look

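In 98 sets of 4 libraries (49 named genes in each group), the highest or lowest library was looked for whose gap to the next, as a share of the range of its set, passed Dixon's 95% critical value. Chance gives about 1 in 20 sets, and 6 were found. Among the members, P2RY12 was at 1.60 log2 CPM in fresh-frozen replicate 4, with the next value of that group at 0.41. Without that library its change was 0.54 (limma adjusted p = 0.186). TYROBP was at 0.97 log2 CPM in PFA-fixed replicate 3, with the next value at -0.15. The other 4 were S100A8 at 0.10 in PFA-fixed replicate 4, F13A1 at 3.47 in fresh-frozen replicate 1, STAB1 at 5.83 in fresh-frozen replicate 2 and VWF, an endothelial gene, at 8.89 log2 CPM in fresh-frozen replicate 1.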

How the results depend on the processing

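The 7 falls and the rise of TREM2 kept their direction under every alternative run. They kept their call under every alternative that gave a p-value, which the ratio of linear CPM did not. For TMEM119, kept through its fresh-frozen values alone, this is a description and no check. Members called lower numbered 7 or 8 (8 with AIF1, under rod-list centring and without the trend) and higher 1 throughout. Changes of TREM2 ran from 2.07 to 2.80 and those of TMEM119 from -7.55 to -4.63. P2RY12 reversed to -0.017 with rod-list centring (limma adjusted p = 0.972), where the median of all genes was -0.27 (-0.02 in the values reported, 0.07 with quantile normalization and 0.06 with median centring), called 2756 genes higher (31.8% of calls, against 49.4%) and gave PROS1 -0.00676. PROS1 ran from -0.033 to 0.45 without single libraries. The homeostatic median was -4.22 and its difference from the pan-macrophage median -1.44 with the minimum level of 1 log2 CPM, because P2RY12 was dropped. The pan-macrophage median was -2.14 with log2(CPM + 1). Without single libraries the difference ran from 1.10 to 1.49. The minimum level left 14 pairs, none with P2RY12 and 7 with TMEM119, which was kept through its fresh-frozen values alone. The number passing there is therefore no check on the 14 pairs without TMEM119. KDR, an endothelial gene, was called lower in 3 alternatives. With the minimum level, 3 signalling genes and no T or NK cell gene were called lower, since fewer were tested, and 2 T or NK cell genes were called lower without PFA-fixed replicate 1 or 4. Deviations of same-numbered libraries correlated at 0.05, 0.15, -0.089 and 0.22 for numbers 1 to 4, so the numbers were not taken as pairs, and with the replicate block the members called remained 7 lower and 1 higher. Pair ratios could not reach 0.05 without a library or with the block, and were not run so. TMEM119 rested on at most 4.1 estimated reads in a PFA-fixed library, so its level there is limited by depth.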

Other observations

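Profiles nearest to the other members were also read. For CSF1R they were ELK3, CDO1 and VCAM1, an adhesion molecule gene of activated endothelium, at root-mean-square distances of 0.14 log2 units each. For C1QA they were the protease gene CTSC (0.12), SARDH (0.14) and CD74 (0.20). For TYROBP they were the cytokine receptor gene IL4R (0.11), BMP7 (0.22) and the chemokine receptor gene CCR1 (0.22). For CX3CR1 they were FHL1 (0.16), the osteopetrosis-linked proton pump gene TCIRG1 (0.18) and HSPA12B (0.19). C1QC had no gene within 0.30, the nearest being GXYLT2 at 0.43. AIF1 had 3098 genes within 0.30, the nearest being ETNK2 at 0.11. P2RY12 had none within 0.30, the nearest being DGKH at 0.31. Beside TMEM119 on the chromosome, SELPLG, which encodes the selectin ligand PSGL-1 of leukocytes, fell by 1.92, while ISCU on the other side had a change of -0.16 and was not called. Beside CSF1R the pericyte receptor gene PDGFRB fell by 2.04, while HMGXB3 on the other side had a change of -0.08 and was not called.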
